A study of Drosophila melanogaster with 24 samples.

Results

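The peptidoglycan recognition protein (PGRP) genes of the fly were followed in RNA of whole adult heads, gene by gene, across age, sex and genotype. Members were the 10 genes of the table whose FlyBase identifier carried the symbol PGRP-SA, PGRP-SD, PGRP-LC, PGRP-LE, PGRP-LA, PGRP-LF, PGRP-LB, PGRP-SB1, PGRP-SC1a or PGRP-SC2, out of 17606 genes in the table. A further 3 genes of the family, PGRP-SB2, PGRP-SC1b and PGRP-LD, were in the table and served as neighbours only. In total 9 members reached 10 normalized counts in at least 3 libraries and were tested together with all other genes that did so, 12493 in all. PGRP-SC1a did not reach that level and is described by its reads.

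Peptidoglycan is the wall polymer of bacteria, and flies read it with proteins that share a domain related to bacterial amidases. Sensing members bind peptidoglycan and start the Toll pathway (PGRP-SA with PGRP-SD) or the Imd pathway (PGRP-LC at the membrane, PGRP-LE inside cells). Both pathways end in NF-kappaB factors, Relish for Imd and Dif and Dorsal for Toll, which turn on antimicrobial peptide genes in the fat body and in epithelia. Amidase members (PGRP-LB, PGRP-SB1, PGRP-SC1a and PGRP-SC2) cut peptidoglycan, and PGRP-LB and the SC amidases thereby dampen the Imd response. PGRP-LF, a membrane protein, holds back PGRP-LC, and PGRP-LA is a membrane protein that tunes the Imd pathway without binding peptidoglycan itself.

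The study asked what lysine 36 of histone H3.3, the variant laid down outside replication, does in adult life, and compared heads of 2 genotypes at 2 ages. H3.3Adelta flies, the controls, carried the H3.3A null allele H3.3A2x1 over the deficiency Df(2L)Bsc110, with wild-type H3.3B. H3.3BK36R flies carried the same H3.3A null combination and, in addition, H3.3B edited so that lysine 36 became arginine, which leaves no wild-type H3.3 protein. The H3.3A loss was thus shared by every group, and flies with an intact H3.3A were not part of the libraries used here. Young flies were 0 to 2 days and old flies 21 to 25 days past eclosion, females and males were collected apart, and each of the 8 groups had 3 libraries made from the pooled heads of 10 to 25 flies. The study calls each library a biological replicate but does not say whether the flies came from separate cultures, so p-values measure the spread between these pools, which may be technical. In whole heads, fewer cells of a type and less RNA per cell cannot be told apart.

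Library depth ranged from 21263006 to 42763126 reads on genes, with a median of 27763237. Young male H3.3BK36R replicate 2 stood apart and was left out throughout: 23 genes of male reproductive tissue summed to 130617 normalized counts there against at most 835 in the other 23 libraries, and 17 digestive enzyme and midgut genes summed to 129362 against at most 14010.2. Those sums go against a label of heads alone for that library. Neuronal, glial and photoreceptor markers (10 genes) were above 0 in every library. The library left out met this too, so it does not check for other tissue. The male-specific roX RNAs summed to at least 41972 in each male and at most 3287 in each female of the 23 libraries. His3.3A, null in all groups by the study's account of the crosses, still had 269.6 to 525 normalized counts. Whether those reads lie outside the deleted part was not tested. His3.3B, which carried the missense change in H3.3BK36R, ranged from 18412 to 26536, and its level does not check the genotype label.

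Levels of the members are given as normalized counts, that is, reads on the gene divided by the size factor that the authors' software assigned to each library. Per kb of annotated exon, the median over 23 libraries placed PGRP-SB1 first at 2233 normalized counts per kb, then PGRP-LA at 815, PGRP-LC at 347, PGRP-LF at 321, PGRP-SD at 264, PGRP-LB at 255, PGRP-SC2 at 211, PGRP-LE at 194, PGRP-SA at 193 and PGRP-SC1a at 0. PGRP-SB1 was above PGRP-LA in 22 of 23 libraries, and PGRP-LA was above PGRP-LC in 23 of 23. From PGRP-LC down to PGRP-SA, neighbours in the order did not separate, since the higher member was above the next in only 10 to 15 of 23 libraries. The members differed far more in how much they varied. The highest library was 1.63 times the lowest for PGRP-LE, 1.68 times for PGRP-LC and 1.77 times for PGRP-LA, but 12.3 times for PGRP-SA, 13.2 times for PGRP-SD, 24.3 times for PGRP-SB1 and 1055 times for PGRP-SC2. PGRP-LE, PGRP-LC and PGRP-LA were thus steady across libraries, and the secreted sensors and the secreted amidases PGRP-SB1 and PGRP-SC2 were not.

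**Figure D1:**
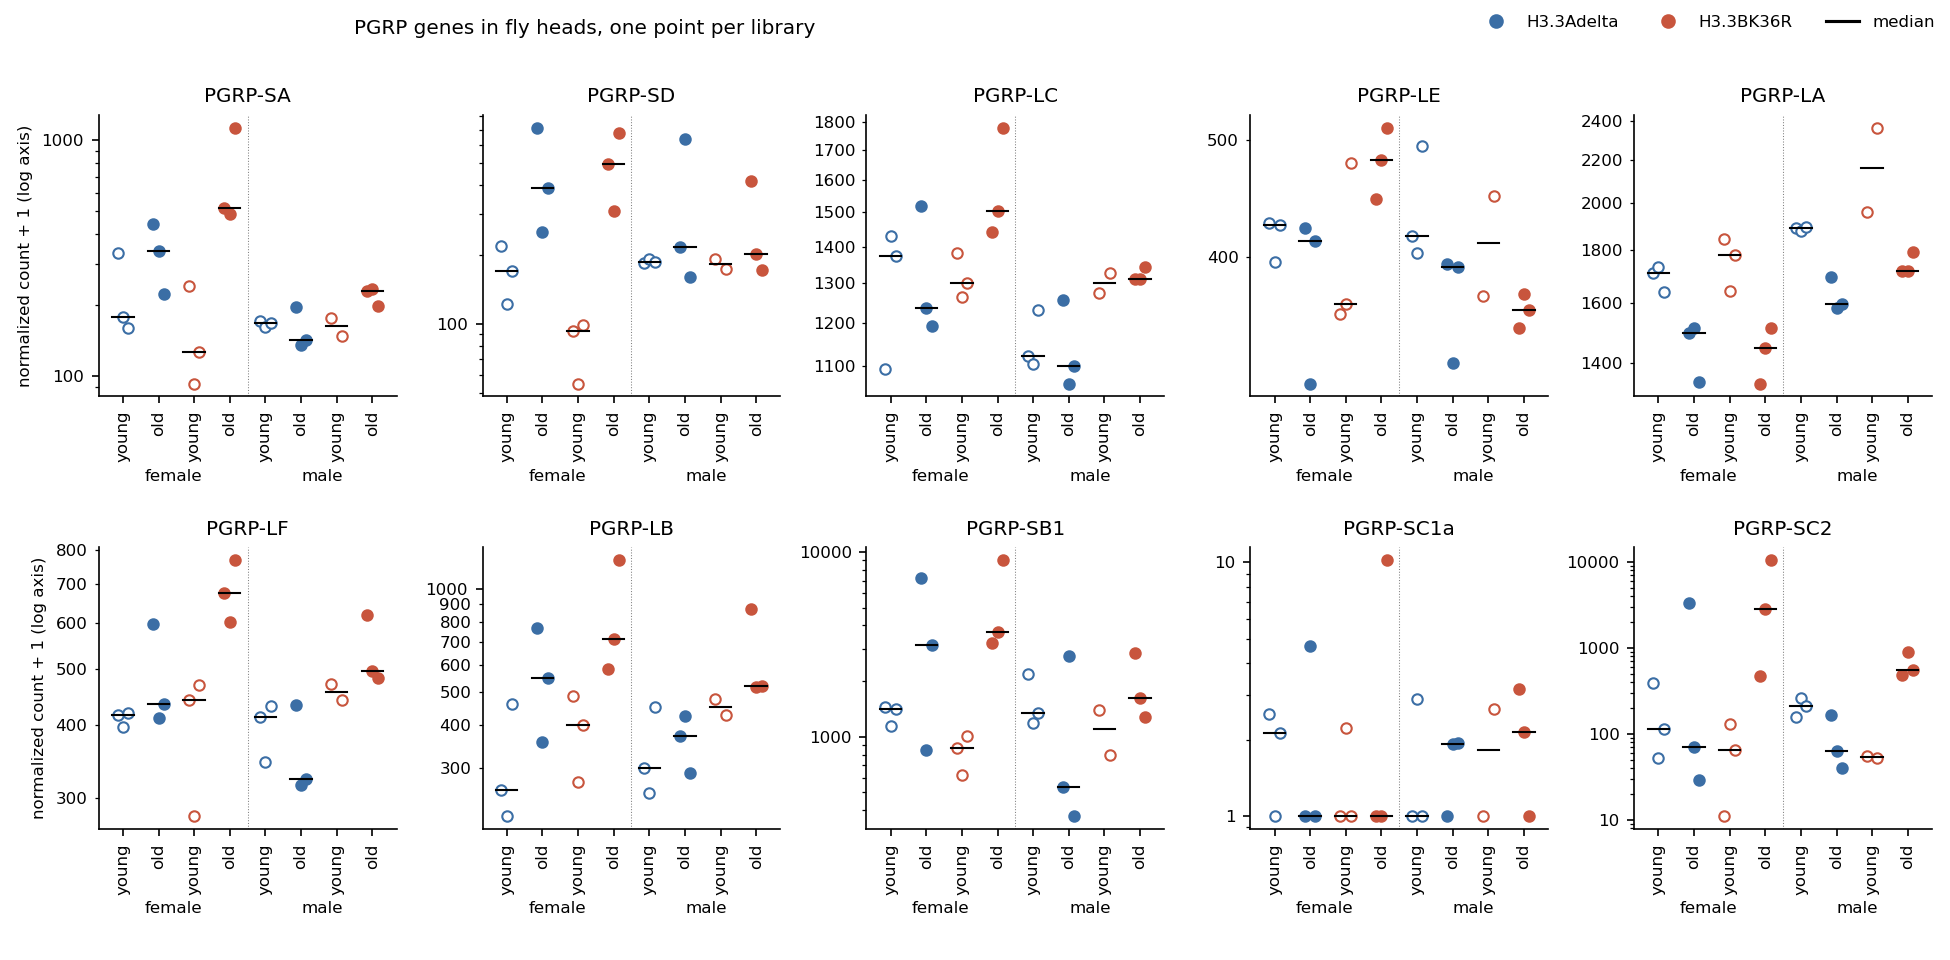
Normalized count plus 1 (log axis, its range set for each gene) of each PGRP gene, 1 point per library, by age within sex and genotype; blue is H3.3Adelta, red is H3.3BK36R, open points are young, filled points are old and the bar is the group median. PGRP-SC2 spans 10.1 to 10626 normalized counts, while PGRP-LE stays between 313 and 511.

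The age comparison within H3.3BK36R moved most of the family. Of 9 members tested, 7 passed an adjusted p of 0.05 between old and young H3.3BK36R heads, in a fit that allowed for sex, where 40.4% of all tested genes passed. The members PGRP-SC2, PGRP-SB1, PGRP-SD, PGRP-SA, PGRP-LB and PGRP-LF rose, PGRP-LA fell, and the Imd receptors PGRP-LC and PGRP-LE did not pass. The median log2 fold change of the members was 0.80, against 0.03 over all genes tested. In H3.3Adelta heads, 2 of 9 members passed with age, where 41.9% of all genes passed. There PGRP-SD rose and PGRP-LA fell, and the members' median was 0.02 against 0.04 over all genes. The difference between these age effects was itself tested for each member, as the age-by-genotype interaction, and only PGRP-SC2 passed, where 2.22% of all genes passed; at an unadjusted p of 0.05, 4 members did so.

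**Figure D2:**
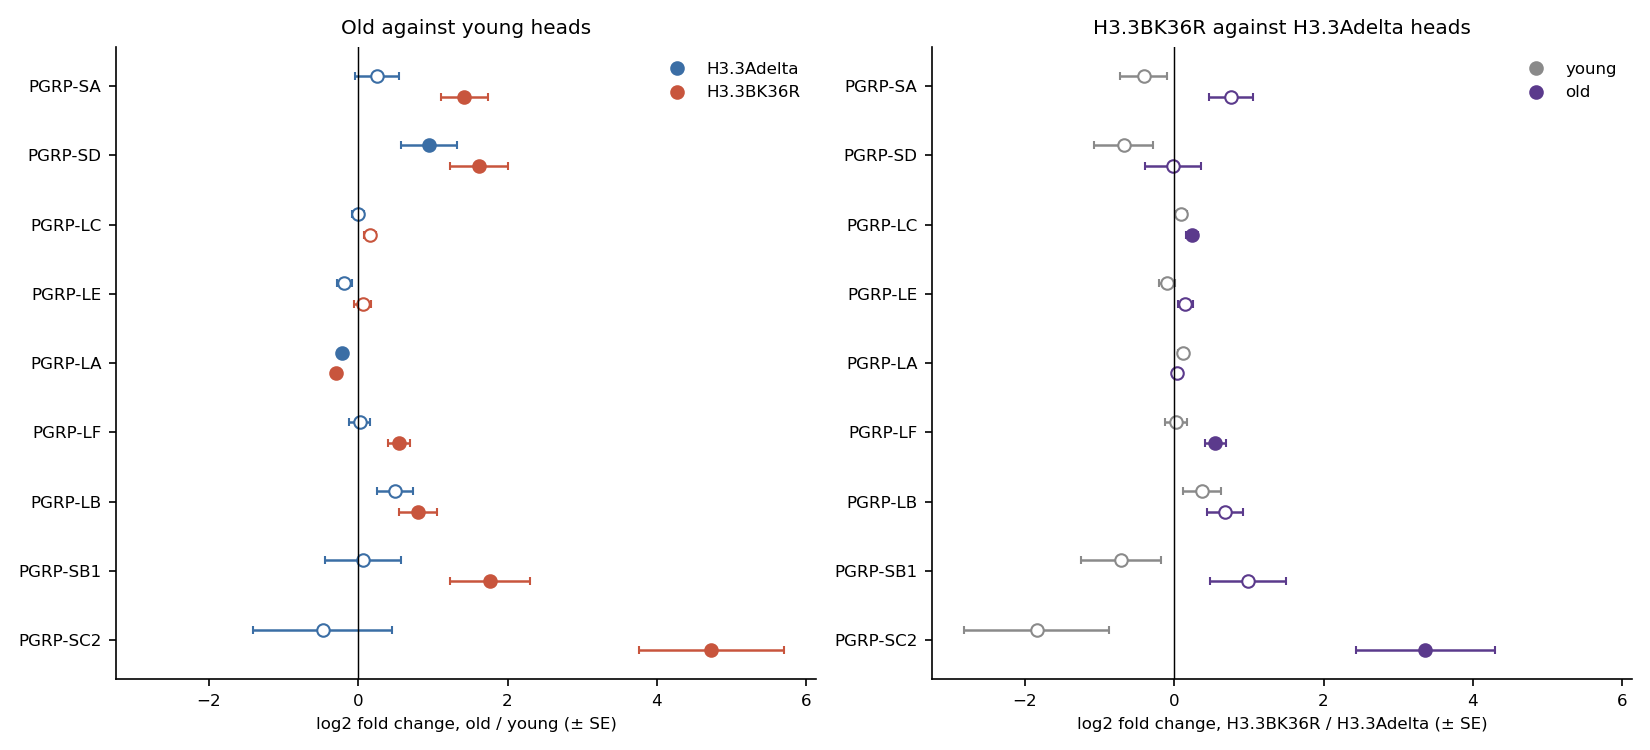
Log2 fold changes of the 9 tested PGRP genes with their standard errors, old against young within each genotype (left) and H3.3BK36R against H3.3Adelta within each age (right); filled points passed an adjusted p of 0.05 (limma) and open points did not. With age, 7 members passed in H3.3BK36R and 2 in H3.3Adelta; between genotypes, 3 passed in old heads and 0 in young heads.

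PGRP-SA (FBgn0030310, X:11561643-11562779 in dm6, plus strand, 2 transcripts, ending 20 bp before Polr2A) encodes the secreted sensor of lysine-type peptidoglycan for Toll. In H3.3BK36R females it had 239, 91.9 and 125 normalized counts when young and 515, 488 and 1131 when old. H3.3BK36R males had 176 and 147 when young and 228, 233 and 196 when old. Old libraries were above young ones of the same sex without overlap, and old female replicate 3 was the highest of all 23. In H3.3Adelta, young females had 330.5, 177 and 159 and old females 440.3, 339 and 221, and young males had 171, 161 and 168 and old males 196, 135 and 141, so the ages overlapped in each sex. The rise in H3.3BK36R was 1.42 ± 0.31 (log2, SE; limma adjusted p = 0.00091), 2.68-fold, and the age difference in H3.3Adelta was 0.25 ± 0.30 (adjusted p = 0.53). The interaction was 1.17 ± 0.43 (adjusted p = 0.20).

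PGRP-SD (FBgn0035806, 3L:7651180-7651900, plus strand, 1 exon) is the secreted partner of PGRP-SA in sensing Gram-positive bacteria. It rose with age in both genotypes. H3.3Adelta females went from 217, 120.2 and 168 normalized counts to 713, 249 and 389, and H3.3BK36R females from 91.9, 53.9 and 97.5 to 495, 309 and 673, without overlap of the ages in either genotype. Males overlapped: old H3.3Adelta males had 216, 638 and 159 against 182, 190.1 and 186 in young ones, and old H3.3BK36R males 418, 199.5 and 170.5 against 190.4 and 173. The age effect was 0.95 ± 0.37 in H3.3Adelta (limma adjusted p = 0.045) and 1.62 ± 0.39 in H3.3BK36R (adjusted p = 0.0022). The H3.3Adelta call was lost in 10 of the 23 fits that left out 1 library, namely without young female H3.3Adelta replicate 1, 2 or 3, young male H3.3Adelta replicate 1, 2 or 3, old female H3.3Adelta replicate 1 or 3, old male H3.3Adelta replicate 2 or old female H3.3BK36R replicate 2, with values of 0.74 to 1.17 over all 23. The gene lies within CG32373 on the same strand and overlaps CG7492 on the other; CG32373 also rose, by 0.70 ± 0.19 (adjusted p = 0.0041) in H3.3Adelta and 1.3 ± 0.20 (adjusted p = 1.1e-05) in H3.3BK36R, while CG7492 differed by 0.06 ± 0.06 and by -0.02 ± 0.07. How reads were divided among these genes was not tested.

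PGRP-LC (FBgn0035976, 3L:9338810-9348336, plus strand, 10 transcripts) is the main membrane receptor of the Imd pathway for the peptidoglycan of Gram-negative bacteria. It did not pass with age, at 0.00 ± 0.08 in H3.3Adelta and 0.15 ± 0.08 (limma adjusted p = 0.13) in H3.3BK36R. In female H3.3BK36R heads alone it differed by 0.26 ± 0.11 (adjusted p = 0.071). PGRP-LE (FBgn0030695, X:15801153-15803880, minus strand) senses peptidoglycan fragments inside cells and in the gut. It differed by -0.18 ± 0.10 with age in H3.3Adelta (adjusted p = 0.16) and by 0.06 ± 0.11 in H3.3BK36R (adjusted p = 0.71). Neither receptor thus changed by an amount that the spread between libraries allowed to be called.

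PGRP-LA (FBgn0035975, 3L:9334332-9338336, plus strand, 5 transcripts) was the member whose groups were cleanest. Young H3.3Adelta females had 1709, 1733 and 1639.8 normalized counts and old ones 1497, 1514 and 1342, and males went from 1891, 1879.8 and 1895 to 1697, 1582 and 1597. In H3.3BK36R, females went from 1845, 1645 and 1782 to 1338, 1448 and 1512, and males from 1960.1 and 2364 to 1719, 1719 and 1792. Every old library was below every young library of its sex and genotype among the 23 libraries. The library left out, a young H3.3BK36R male, had 1535, below the 3 old males. The change was small, -0.22 ± 0.05 in H3.3Adelta (limma adjusted p = 0.0024) and -0.29 ± 0.06 in H3.3BK36R (adjusted p = 0.00031), and both passed whichever of the 23 libraries was left out.

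PGRP-LF (FBgn0035977, 3L:9349609-9351489, plus strand), the membrane inhibitor of PGRP-LC, rose with age in H3.3BK36R. Young H3.3BK36R females had 442, 278 and 468 normalized counts and old ones 674, 602 and 769, and males had 469 and 441 when young and 618, 494 and 481 when old. The ages did not overlap in either sex. H3.3Adelta females went from 415, 396 and 419 to 598, 411 and 435 and males from 412, 345 and 430.5 to 432, 314 and 323, with overlap. The age effect was 0.55 ± 0.15 in H3.3BK36R (limma adjusted p = 0.0046), 1.47-fold, and 0.02 ± 0.14 in H3.3Adelta (adjusted p = 0.91), with an interaction of 0.53 ± 0.20 that did not pass (adjusted p = 0.23). PGRP-LF overlaps UGP on the opposite strand, and although the name of the deposited table mentions strand, the setting used in counting is not stated; UGP differed by -0.09 ± 0.21 (adjusted p = 0.77) with age in H3.3BK36R.

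PGRP-LA, PGRP-LC and PGRP-LF lie side by side in that order on the plus strand of chromosome arm 3L, with 473 bp between PGRP-LA and PGRP-LC and 1272 bp between PGRP-LC and PGRP-LF. With age in H3.3BK36R, the first fell, the second did not pass and the third rose, so neighbours of 1 block did not move together. Across 23 libraries, Pearson r of log2(normalized count + 1) was 0.76 between PGRP-LC and PGRP-LF, -0.23 between PGRP-LA and PGRP-LC and -0.28 between PGRP-LA and PGRP-LF. These are descriptions over libraries that fall into shared sets. For deviations from the group means, the values were 0.54, 0.48 and 0.35, so within groups all 3 pairs varied in the same direction.

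**Figure D3:**
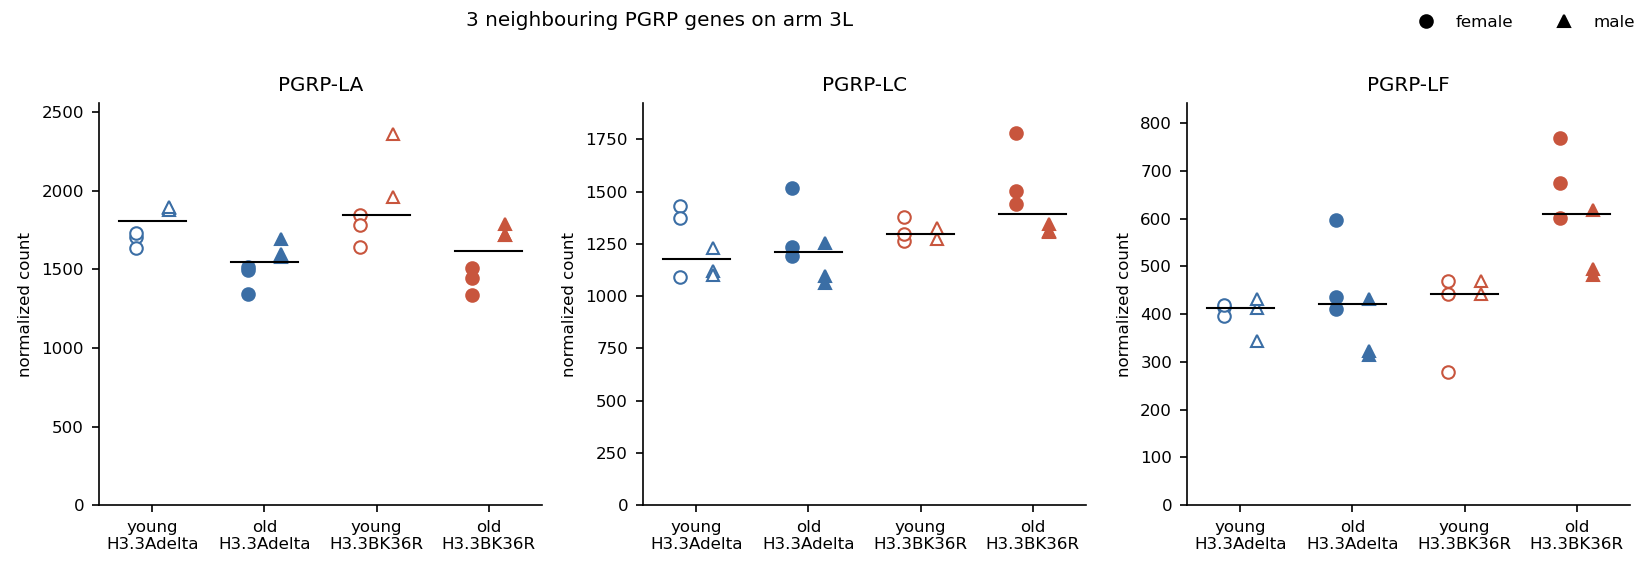
Normalized counts (linear axis from 0) of the neighbouring genes PGRP-LA, PGRP-LC and PGRP-LF, 1 point per library, by genotype and age; circles are females, triangles are males, open points young, filled points old, and the bar is the median of the age and genotype. PGRP-LA is lower in old than in young libraries of each sex and genotype, and the median of PGRP-LF is highest in old H3.3BK36R heads.

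PGRP-LB (FBgn0037906, 3R:11452849-11460552, minus strand, 6 transcripts) is the amidase that removes peptidoglycan before it reaches the Imd receptors. H3.3BK36R females had 487, 273 and 399.9 normalized counts when young and 582, 712 and 1210.2 when old, and males 477 and 428 when young and 869, 516 and 518 when old. The ages did not overlap in either sex among the 23 libraries, but the young male library left out had 601, above 2 of the 3 old males. In H3.3Adelta, females went from 258, 217 and 461 to 769, 357 and 549 and males from 299, 253 and 452 to 371, 425 and 289, with overlap. The rise in H3.3BK36R was 0.80 ± 0.25 (limma adjusted p = 0.014), 1.74-fold, and missed the threshold without young female H3.3BK36R replicate 2 (adjusted p = 0.051). H3.3Adelta differed by 0.49 ± 0.24 (adjusted p = 0.11), past the threshold only without young male H3.3Adelta replicate 3, and the interaction was 0.31 ± 0.35 (adjusted p = 0.80). CG17230, which overlaps PGRP-LB on the other strand, differed by 0.04 ± 0.07 (adjusted p = 0.73) with age in H3.3BK36R.

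PGRP-SB1 (FBgn0043578, 3L:16727299-16727989, minus strand), a secreted amidase that is switched on by infection, was the most abundant member per kb. In H3.3BK36R females it had 873, 618 and 1014 normalized counts when young and 3219.7, 3687 and 9055 when old, without overlap. H3.3BK36R males had 1391 and 796 when young and 2855, 1609.9 and 1273 when old, with overlap. In H3.3Adelta the old libraries scattered on both sides of the young ones, with 7191, 851 and 3129 in old females against 1446, 1137 and 1404 in young ones, and 533, 2726 and 372 in old males against 2175, 1192 and 1344 in young ones. The age effect was 1.76 ± 0.54 in H3.3BK36R (limma adjusted p = 0.012), 3.39-fold, and 0.06 ± 0.51 in H3.3Adelta (adjusted p = 0.94). The interaction was 1.70 ± 0.74 (adjusted p = 0.31). PGRP-SB2, whose end lies 10 bp away on the other strand, was at 0 to 8.08 normalized counts.

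PGRP-SC2 (FBgn0043575, 2R:8716950-8717695, plus strand, 1 exon), a secreted amidase known best from the midgut, changed by the largest factor of the members tested. H3.3BK36R females had 10.1, 127 and 64.5 normalized counts when young and 475, 2831 and 10626 when old. H3.3BK36R males had 53.4 and 51.3 when young and 477, 906 and 552 when old, and the library left out, also young, had 884. The 23 libraries separated by age in each H3.3BK36R sex. H3.3Adelta females had 390.4, 51.5 and 113 when young and 3368, 68.3 and 28.2 when old, and males 157, 264 and 211 when young and 163, 62.5 and 39.4 when old, so that 1 old female library stood far above the other 5 old ones. The rise in H3.3BK36R was 4.73 ± 0.97 (limma adjusted p = 0.00048), 26.6-fold, and 4.11 without old female H3.3BK36R replicate 3. In H3.3Adelta no direction held: the difference was -0.48 ± 0.93 with limma (adjusted p = 0.72), 0.80 with edgeR (adjusted p = 0.56), 0.71 with DESeq2 (adjusted p = 0.57) and, with limma, -1.46 (adjusted p = 0.060) without both old female H3.3Adelta replicate 1 and old female H3.3BK36R replicate 3.

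The age-by-genotype interaction of PGRP-SC2 was 5.21 ± 1.3 (limma adjusted p = 0.042). It was close to the threshold: among the 23 fits that left out 1 library it lost the call in 16, with values of 4.59 to 6.11 and adjusted p up to 0.081. It kept the call only without young female H3.3Adelta replicate 2, young female H3.3BK36R replicate 2, old female H3.3Adelta replicate 1, old female H3.3BK36R replicate 1, young male H3.3BK36R replicate 3, old male H3.3Adelta replicate 1 or old male H3.3BK36R replicate 1. It was also lost with all 24 libraries (4.44, adjusted p = 0.15), with no filter on low counts (adjusted p = 0.11) and with edgeR on the recovered reads (4.25, adjusted p = 0.16).

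PGRP-SC1a (FBgn0043576, 2R:8709733-8710320, plus strand, 1 exon), an amidase of the same cluster, was near 0, with 0 to 9.23 normalized counts and 0 to 8 reads in the 23 libraries. Its highest value was again in old female H3.3BK36R replicate 3. PGRP-SC1b, its near-identical copy between PGRP-SC1a and PGRP-SC2, had 0 to 23.1 normalized counts, and reads of these copies may be split between them or lost in counting. The library left out had 90.7 for PGRP-SC1a and 37.4 for PGRP-SC1b. Levels of PGRP-SC1a and PGRP-SC1b are therefore uncertain.

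Between genotypes, no member passed in young heads, where 9.21% of all genes passed; none of the 9 had an unadjusted p below 0.05, and edgeR and DESeq2 also called 0. In old heads, which share libraries with the age comparisons, 3 of 9 members passed and all were higher in H3.3BK36R, where 18.6% of all genes passed; the members' median was 0.55 against 0.00 over all genes. PGRP-LF was 0.55 ± 0.14 higher (limma adjusted p = 0.0079), with old H3.3BK36R libraries above old H3.3Adelta libraries in females (602 to 769 against 411 to 598) and in males (481 to 618 against 314 to 432), and it passed whichever library was left out. PGRP-SC2 was 3.37 ± 0.93 higher (adjusted p = 0.013), without overlap in males and with overlap in females. PGRP-LC was 0.24 ± 0.08 higher (adjusted p = 0.030): old H3.3BK36R females had 1440.5, 1504 and 1779 against 1518, 1235 and 1191, and males 1309, 1311 and 1343 against 1254, 1061 and 1098, separate in males only.

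These genotype calls in old heads differed in firmness. PGRP-SC2 ranged from 2.78 without old female H3.3BK36R replicate 3 to 4.31 without old female H3.3Adelta replicate 1 and kept its call in each, but edgeR gave 2.16 (adjusted p = 0.11) and DESeq2 gave 2.23 (adjusted p = 0.072). PGRP-LC missed the threshold without old female H3.3Adelta replicate 2 or 3, old female H3.3BK36R replicate 3 or old male H3.3Adelta replicate 2 or 3, with adjusted p up to 0.085. PGRP-LB, at 0.68 ± 0.24 (adjusted p = 0.052), and PGRP-SA, at 0.76 ± 0.30 (adjusted p = 0.079), lay just outside it. With DESeq2 both passed (PGRP-LB 0.68, adjusted p = 0.031; PGRP-SA 0.84, adjusted p = 0.028), and PGRP-LB also passed with upper-quartile scaling (adjusted p = 0.046) and with the replicate block (adjusted p = 0.031). PGRP-LB passed without young female H3.3Adelta replicate 2, young female H3.3BK36R replicate 2, young male H3.3Adelta replicate 3, old female H3.3Adelta replicate 1, old female H3.3BK36R replicate 1 or old male H3.3BK36R replicate 2 or 3. Without old female H3.3Adelta replicate 1 the count rose from 3 to 6 members, with PGRP-SA and PGRP-SB1 also past the threshold. PGRP-SB1 at 0.99 ± 0.51, PGRP-LE at 0.15 ± 0.10, PGRP-LA at 0.04 ± 0.05 and PGRP-SD at -0.01 ± 0.37 did not pass. PGRP-SA and PGRP-LE lie on the X chromosome, as does H3.3B. PGRP-SD, PGRP-LC, PGRP-LA, PGRP-LF, PGRP-LB and PGRP-SB1 lie on the third chromosome. The study describes the strains as closely related but only the second chromosomes as identical. The K36R change and other differences between the strains, on the gene's own chromosome or another, therefore cannot be told apart for any member.

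The age comparison was then made within each sex. In female H3.3BK36R heads 7 of 9 members passed with age (37% of all genes), the same 7 as with both sexes: PGRP-SC2 at 5.74 ± 1.32, PGRP-SD at 2.56 ± 0.45, PGRP-SB1 at 2.54 ± 0.66, PGRP-SA at 2.22 ± 0.34, PGRP-LB at 1.08 ± 0.33, PGRP-LF at 0.81 ± 0.18 and PGRP-LA at -0.29 ± 0.08, with limma adjusted p of 6e-05 to 0.016. The PGRP-LB call was lost without young female H3.3BK36R replicate 2 or old female H3.3BK36R replicate 3. In male H3.3BK36R heads only PGRP-LA passed (-0.30 ± 0.09, adjusted p = 0.016; 19.2% of all genes), a call lost without young male H3.3BK36R replicate 3 (-0.17), where the lone library left was assumed to vary like the other groups. It was also lost with all 24 libraries (-0.14, adjusted p = 0.38) and with upper-quartile scaling (-0.24, adjusted p = 0.076). In the same heads PGRP-SC2 was at 3.54 ± 1.48 (adjusted p = 0.10). The young male group had 2 libraries, which limits what could pass. The difference between the sexes was tested and no member passed it in H3.3BK36R (0.136% of all genes passed), although 4 members had an unadjusted p below 0.05. PGRP-SD, at 2.15 ± 0.68 (adjusted p = 0.13), and PGRP-SA, at 1.78 ± 0.52 (adjusted p = 0.12), had the lowest p-values there.

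In H3.3Adelta females, 2 members passed with age (30.2% of all genes): PGRP-SD at 1.32 ± 0.45 (limma adjusted p = 0.032) and PGRP-LA at -0.22 ± 0.08 (adjusted p = 0.031). The first was lost without young female H3.3Adelta replicate 2 or 3 or old female H3.3Adelta replicate 1 or 3, and the second without young female H3.3Adelta replicate 1 or 2 or old female H3.3Adelta replicate 3. In H3.3Adelta males only PGRP-LA passed (-0.22 ± 0.08, adjusted p = 0.041; 26.5% of all genes), and it was lost without any of the 3 young male H3.3Adelta libraries, old male H3.3Adelta replicate 2 or 3 or old male H3.3BK36R replicate 2. No member's age effect passed a test of the difference between sexes in H3.3Adelta (0% of all genes), and 0 members had an unadjusted p below 0.05 there. DESeq2 and edgeR also called 0 members for the difference between sexes in either genotype.

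**Figure D4:**
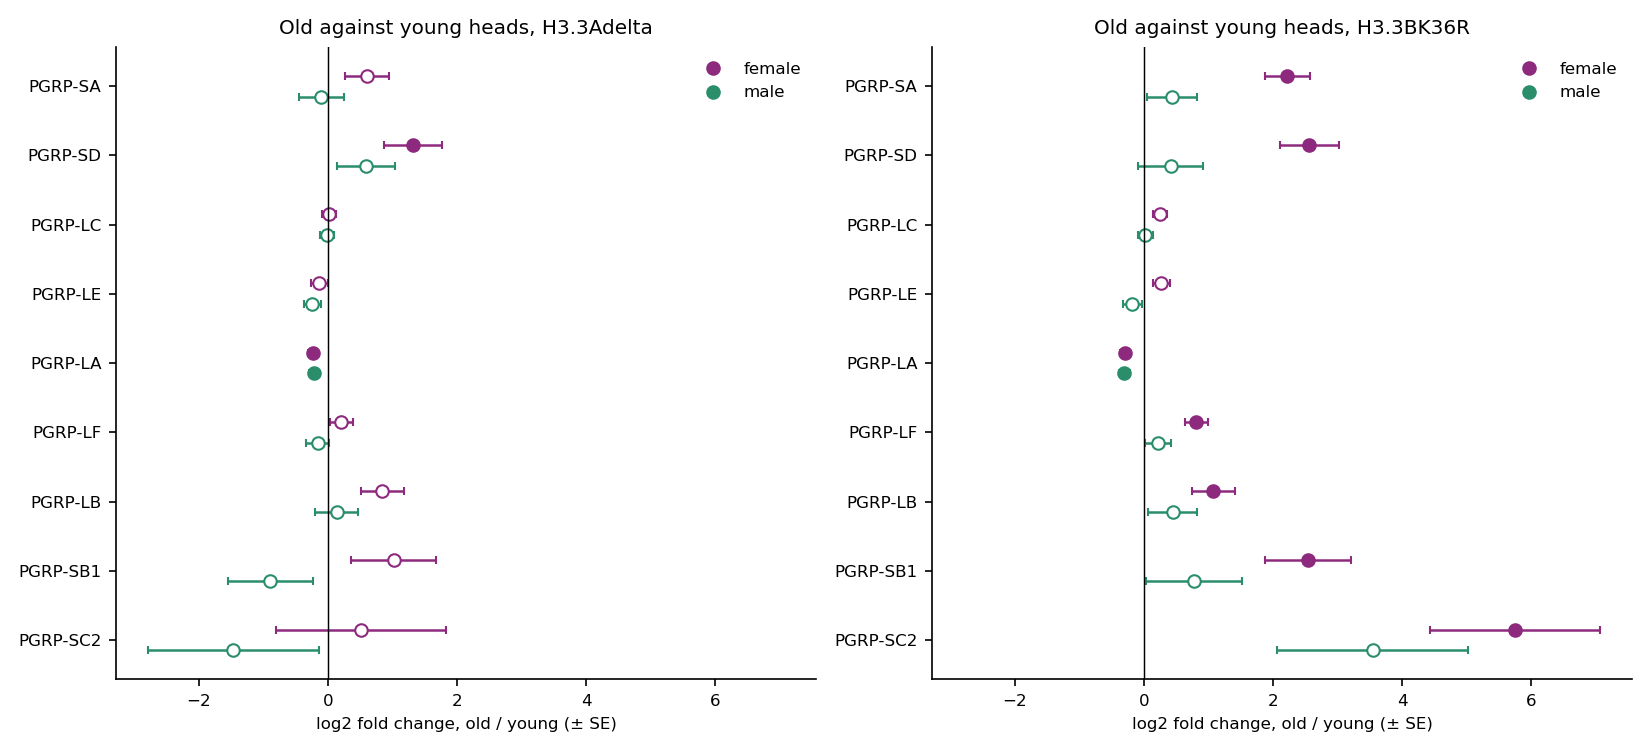
Log2 fold changes of old against young heads with their standard errors for the 9 tested PGRP genes, females and males apart, in H3.3Adelta (left) and H3.3BK36R (right); filled points passed an adjusted p of 0.05 (limma). In H3.3BK36R 7 members passed in females and 1 in males, and no difference between the sexes passed its own test.

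Within a sex, no member passed between genotypes in young females (3.89% of all genes), young males (4.63%), old females (10.8%) or old males (8%), and none passed the difference of the genotype effect between sexes in young (0%) or old heads (0.048%). At an unadjusted p of 0.05 the counts were 1, 1, 5 and 3 of 9 for the 4 genotype comparisons and 0 for each difference, for which edgeR and DESeq2 also called 0. In old females DESeq2 and edgeR called 1 member each, and in old males DESeq2 called 1 and edgeR 0; in young heads of each sex both called 0. The old-head effect of PGRP-LF was of like size in both sexes, 0.51 ± 0.18 in females (adjusted p = 0.075) and 0.58 ± 0.18 in males (adjusted p = 0.053), as was that of PGRP-SC2, 3.68 ± 1.32 and 3.05 ± 1.32.

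Between the sexes, in a fit over all ages and genotypes, 3 of 9 members passed, where 28.9% of all genes passed. PGRP-LA was lower in females by 0.22 ± 0.04 on the log2 scale (limma adjusted p = 0.00019), and each male library was above each female library of its age and genotype. PGRP-SA was 0.74 ± 0.22 higher in females (adjusted p = 0.012) and PGRP-LC 0.17 ± 0.06 higher (adjusted p = 0.027), the latter lost without young female H3.3Adelta replicate 2, old female H3.3Adelta replicate 1, old female H3.3BK36R replicate 3 or old male H3.3Adelta replicate 2. In young heads alone, PGRP-SA differed by 0.34 ± 0.34 in H3.3Adelta (adjusted p = 0.73) and by -0.20 ± 0.38 in H3.3BK36R (adjusted p = 0.87). PGRP-LC differed there by 0.17 ± 0.11 (adjusted p = 0.53) and 0.02 ± 0.12 (adjusted p = 0.97). PGRP-SC2, at 0.65 ± 0.67 (adjusted p = 0.53), passed only with DESeq2 (1.73, adjusted p = 0.036), and PGRP-LF (0.17) passed only without young female H3.3BK36R replicate 2. In old H3.3BK36R heads, where 3 members passed (19.6% of all genes), PGRP-SA was 1.59 ± 0.34 higher in females (adjusted p = 0.0029), PGRP-LE 0.41 ± 0.13 higher (adjusted p = 0.032) and PGRP-LA lower at -0.28 ± 0.08 (adjusted p = 0.012).

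The PGRP-LE call in old H3.3BK36R heads was the only one that this receptor had in any comparison with limma. Females had 445, 480.4 and 511 normalized counts and males 348, 372 and 360.1, without overlap, but the call was lost without old female H3.3BK36R replicate 2 or 3 or any of the 3 old males. The PGRP-LA call there was lost without old female H3.3BK36R replicate 1 or old male H3.3BK36R replicate 3. No member passed between the sexes in young H3.3Adelta (3.78% of all genes), young H3.3BK36R (1.54%) or old H3.3Adelta heads (12.1%), with 0, 2 and 4 members at an unadjusted p below 0.05. DESeq2 called 0, 1 and 2 members there and edgeR called 0 in each; PGRP-SA in old H3.3Adelta heads was at 1.04 ± 0.34 (adjusted p = 0.053).

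The same comparisons were then read in the genes downstream of the receptors, which share all libraries with the members. Of all tested genes, 40.4% passed with age in H3.3BK36R, 41.9% with age in H3.3Adelta and 2.22% in the interaction. Between genotypes, 18.6% passed in old heads and 9.21% in young heads. Of 14 antimicrobial peptide genes, the products that Imd and Toll signalling switches on, 12 rose and 0 fell with age in H3.3BK36R, with a median of 3.59, and 0 rose and 1 fell in H3.3Adelta, with a median of -0.80. Drosocin (Dro) rose by 4.78 ± 0.83 (limma adjusted p = 8.5e-05), metchnikowin (Mtk) by 3.78 ± 0.67 (adjusted p = 0.00011) and attacin A (AttA) by 4.17 ± 0.98 (adjusted p = 0.0017) in H3.3BK36R. In H3.3Adelta, drosomycin (Drs) fell by 2.61 ± 1.0 on the log2 scale (adjusted p = 0.040). Of these 14 genes 4 passed the age-by-genotype interaction, Dro at 6.02 ± 1.15 among them (adjusted p = 0.0071). Of 11 bomanin genes, short peptides made downstream of Toll, 9 rose with age in H3.3BK36R, 8 fell in H3.3Adelta and 10 passed the interaction, led by BomBc3 at 3.16 ± 0.51 (adjusted p = 0.0016). In old heads 10 bomanins were higher in H3.3BK36R, and in young heads 1 was lower. Among the 14 peptide genes 2 were higher in old H3.3BK36R heads and 3 lower in young ones, with medians of 2.09 and -2.60. The count in old heads was not above the share of all genes.

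Components between receptor and target were counted beside 40.4% of all genes called with age in H3.3BK36R and 41.9% in H3.3Adelta. Of 13 Imd signalling genes, 5 rose and 2 fell with age in H3.3BK36R and 4 rose and 1 fell in H3.3Adelta, with medians of 0.12 and 0.04, in H3.3Adelta a share near that of all genes. The kinase gene IKKbeta rose by 0.51 ± 0.09 (limma adjusted p = 9e-05) and 0.37 ± 0.08 (adjusted p = 0.0014), and the caspase gene Dredd by 0.42 ± 0.10 and 0.61 ± 0.10, in H3.3BK36R and H3.3Adelta respectively. In old heads the NF-kappaB gene Rel was 0.55 ± 0.17 (adjusted p = 0.024) and the adaptor gene imd 0.38 ± 0.12 (adjusted p = 0.026) higher in H3.3BK36R, and key, a subunit of the same kinase complex, was lower at -0.21 ± 0.07 (adjusted p = 0.029). Of 9 negative regulators, 3 rose and 2 fell in H3.3BK36R and 4 rose and 2 fell in H3.3Adelta. The inhibitor pirk, which draws PGRP-LC away from signalling, rose in both genotypes, by 4.07 ± 0.20 in H3.3BK36R (adjusted p = 9.8e-13) and by 3.5 ± 0.19 in H3.3Adelta (adjusted p = 6.2e-12). It was also 0.98 ± 0.19 higher in old H3.3BK36R than in old H3.3Adelta heads (adjusted p = 0.00083).

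The Toll side was counted beside the same shares, 40.4% of all genes called with age in H3.3BK36R and 41.9% in H3.3Adelta. Of 10 genes for recognition proteins and the protease cascade upstream of the Toll receptor, which include branches that do not pass through PGRP-SA, 5 rose and 1 fell with age in H3.3BK36R, and 0 rose and 3 fell in H3.3Adelta. GNBP1, which works with PGRP-SA, rose by 0.42 ± 0.09 (limma adjusted p = 0.00098) in H3.3BK36R and was 0.48 ± 0.09 higher than in H3.3Adelta in old heads (adjusted p = 0.00047). SPE, the protease that cuts the Toll ligand, was 0.90 ± 0.15 higher (adjusted p = 0.00013), and nec, a serpin that restrains the cascade, 0.80 ± 0.14 higher (adjusted p = 0.00021), in old H3.3BK36R heads. Of 7 genes from Toll to its NF-kappaB factors, 3 rose in H3.3BK36R, among them dl by 0.44 ± 0.07 (adjusted p = 3.8e-05), and 1 rose and 2 fell in H3.3Adelta, where Tl fell by 0.25 ± 0.06 on the log2 scale (adjusted p = 0.0021). For these 7 genes the number called was near the share of all genes in both genotypes. The 2 further PGRP genes that were tested, PGRP-SC1b and PGRP-LD, passed in none of these 6 comparisons.

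Some libraries carried the high values of several members at once. Old female H3.3BK36R replicate 3 had the highest value of PGRP-SA, PGRP-LC, PGRP-LE, PGRP-LF, PGRP-LB, PGRP-SB1 and PGRP-SC2 among the 23, and its 14 antimicrobial peptide genes summed to 420360.0 normalized counts, also the highest. Old female H3.3Adelta replicate 1 had 188619, against 7227 and 42296 in the other old H3.3Adelta females. The 17 digestive enzyme and midgut genes summed to 14010.2 and 7041 in these 2 libraries. Over the groups that sum was 4560.1 to 14010.2 in old H3.3BK36R females, 952 to 7041 in old H3.3Adelta females, 5823 to 8159 in old H3.3BK36R males and 1652 to 5933 in old H3.3Adelta males, and 1216 to 2857, 1445 to 2652, 2872 to 4871 and 2641 to 3834 in young H3.3Adelta females, H3.3BK36R females, H3.3Adelta males and H3.3BK36R males. Of the 17 genes 0 to 6 were at 0 in each library. Most of the sum was amylase: Amy-p and Amy-d had medians of 1044 and 1601 normalized counts, while the trypsin genes alphaTry, betaTry and epsilonTry had 8.0, 5.65 and 5.54 and thetaTry 0. Amy-d was 1.75 ± 0.30 and Amy-p 1.73 ± 0.47 higher in old H3.3BK36R than old H3.3Adelta heads (limma adjusted p = 0.00019 and 0.011). No other of the 15 gut genes tested passed there, and the median of the list was -0.26. With age in H3.3BK36R (40.4% of all genes), Amy-d rose by 1.47 ± 0.31, Amy-p rose by 2.08 ± 0.49 and Mal-A1 fell, with a list median of 0.28. In H3.3Adelta (41.9%), Jon25Bii rose by 2.89 ± 0.89 and Jon65Aiii by 2.50 ± 0.92, with a median of 1.73. Only Amy-d passed the interaction (1.90 ± 0.43, limma adjusted p = 0.021), where 2.22% of all genes passed and the list median was -1.10. The part of these genes in the PGRP-SC2 values was not tested. Without old female H3.3BK36R replicate 3 and old female H3.3Adelta replicate 1, an alternative chosen after seeing the data, 7 members passed with age in H3.3BK36R, 1 in H3.3Adelta, 4 between genotypes in old heads and 1 in the interaction.

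**Figure D5:**
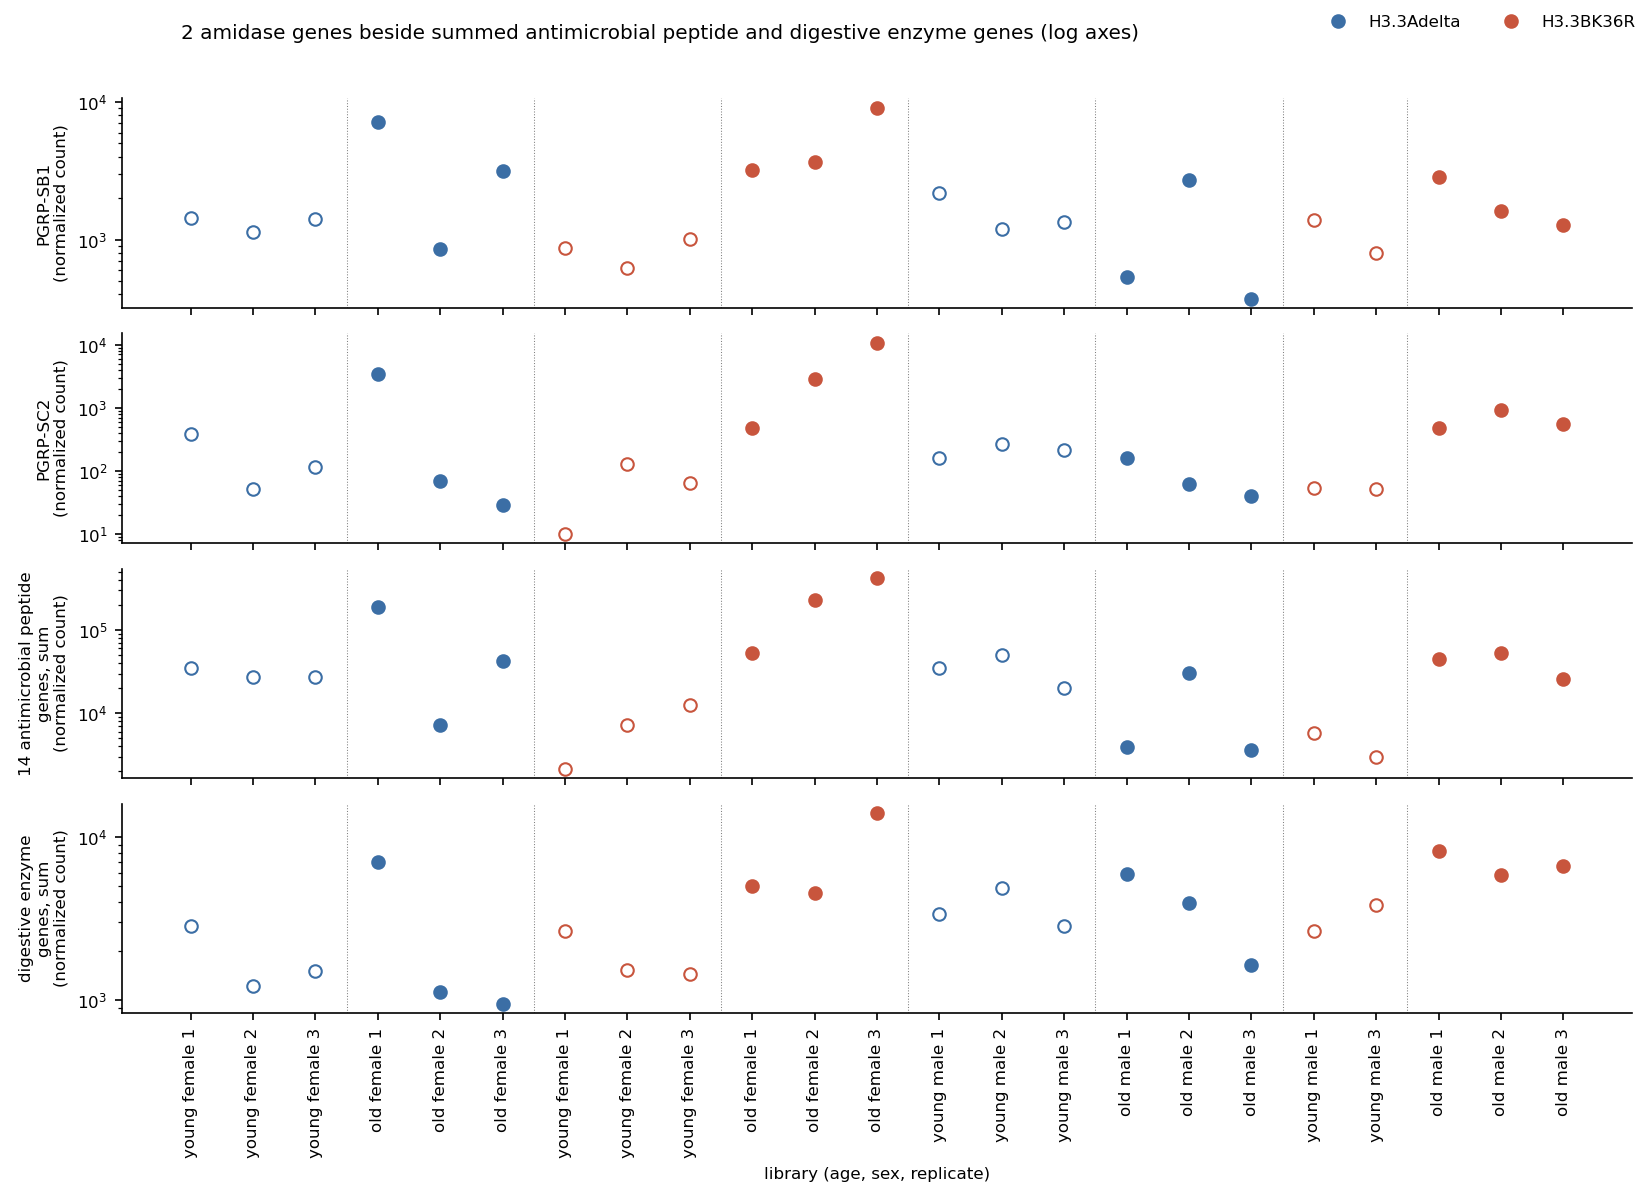
PGRP-SB1, PGRP-SC2, the sum of 14 antimicrobial peptide genes and the sum of 17 digestive enzyme and midgut genes in each of 23 libraries (normalized counts, log axes); blue is H3.3Adelta, red is H3.3BK36R, open points are young and filled points are old. Old female H3.3BK36R replicate 3 is the highest library in all 4 panels (PGRP-SB1 at 9055, PGRP-SC2 at 10626).

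Markers of other cell types that bear on the members were read beside all genes. Between genotypes, 9.21% of all genes passed in young heads and 18.6% in old heads. With age, 41.9% passed in H3.3Adelta and 40.4% in H3.3BK36R, and in the interaction 2.22% passed. Among 6 hemocyte (blood cell) genes, none of which was at 0 in any library, NimC1 was lower in H3.3BK36R, at -0.66 ± 0.17 in young heads (limma adjusted p = 0.017) and -1.01 ± 0.16 in old heads (adjusted p = 0.00011). In old heads crq was also lower, at -0.21 ± 0.06 (adjusted p = 0.01). None was called higher at either age, and the list medians were -0.19 in young and -0.24 in old heads. With age 2 fell in H3.3Adelta and 3 in H3.3BK36R, Pxn and eater in both, and 0 rose. The hemocyte list summed to 7299 to 8921 in old H3.3BK36R females against 10346 to 13832 in old H3.3Adelta females, but to 9217 to 9692 in old H3.3BK36R males against 8476 to 8901 in old H3.3Adelta males. Of 8 fat body genes, none of which was at 0 in any library, Lsp2 was 5.99 ± 0.78 higher in old H3.3BK36R heads (adjusted p = 8.8e-06) and Mtp 0.43 ± 0.15 higher (adjusted p = 0.040), while the median of the list was -0.25. No other of the 8 passed there. In young heads only Fbp1 passed, 3.34 ± 0.75 higher in H3.3BK36R (adjusted p = 0.006), with a list median of 1.09. With age, Lsp2 fell by 4.70 ± 0.78 on the log2 scale in H3.3Adelta (adjusted p = 4.8e-05) and Fbp1 fell by 5.85 ± 0.75 in H3.3BK36R (adjusted p = 2.1e-06), Apoltp and Mtp rose in both genotypes, and the interaction of Lsp2 was 4.30 ± 1.13 (adjusted p = 0.047). Of the 8 fat body genes, 2 rose and 2 fell with age in H3.3Adelta and 2 rose and 1 fell in H3.3BK36R. These age counts were near the shares of all genes. The fat body list summed to 1949910.0 to 4569160.0 in old H3.3BK36R females and 2174450.0 to 4088600.0 in old H3.3Adelta females, and to 194637 to 328700.0 against 190458 to 742507 in old males. The 10 neuronal, glial and photoreceptor genes summed to 759462 to 815283 in old H3.3BK36R females against 1008920.0 to 1083560.0 in old H3.3Adelta females. In old males the sums were 922651 to 995936 against 1143960.0 to 1230870.0. Young groups overlapped in each sex. The gene ninaE alone had a median of 641154. Of the 10 genes, 1 was higher and 1 lower in old H3.3BK36R heads, with a median of -0.16. The part of these lists in the PGRP values was not tested.

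Each member that passed in a comparison of both sexes was set beside all tested genes by Pearson r of log2(normalized count + 1) over 23 libraries, which share 8 groups, so that r describes likeness of pattern only. PGRP-SB1 was most like the antimicrobial peptide genes Mtkl (0.92), AttB (0.91) and AttC (0.90), and PGRP-SC2 was most like CG11034 (0.92), the infection-induced gene IBIN (0.89) and CG18563 (0.86). After group means were taken away these stayed at 0.84 to 0.88 for PGRP-SB1 and 0.69 to 0.88 for PGRP-SC2. PGRP-LB was most like Rel (0.87, and 0.81 within groups), then PGRP-LF (0.83, and 0.68 within groups) and CG7294 (0.81, and 0.63 within groups).

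The other members had other partners. PGRP-SA was most like Idgf3, a chitinase-like growth factor gene (0.92), CG30151 (0.90) and Trp1 (0.90), and PGRP-SD most like CG15046 (0.85), the chaperone gene Grp170 (0.84) and the zinc transporter gene Zip89B (0.83). PGRP-LF was most like CG10337 (0.89), CG8738 (0.88) and the serpin gene Spn27A (0.87), and PGRP-LC most like CG15203 (0.85), CG44014 (0.83) and nec (0.83). PGRP-LA, the member that fell, was most like the metabolic gene Ssadh (0.92), CG13760 (0.91) and CG13108 (0.90), and within groups these dropped to 0.49, 0.46 and 0.41. The other members' values also dropped within groups, to 0.53 to 0.69 for PGRP-SA, 0.59 to 0.62 for PGRP-SD, 0.68 to 0.75 for PGRP-LF and 0.58 to 0.66 for PGRP-LC.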

How the data were processed

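RNA of whole heads (total RNA depleted of ribosomal RNA, 100 nt paired-end reads) was measured in 24 libraries, 3 in each of 8 groups named by the labels. The authors aligned reads with STAR 2.7.7a, counted them per gene with featureCounts (Subread 2.0.3) on dm6 and deposited counts divided by DESeq2 1.34.0 size factors (signal on the scale of counts); the annotation release is not given in the sources used here. The size factor of each library was inferred from its values, through the step of which nearly all were whole multiples. Multiplying by it returned whole reads for 100% of values within 0.001, and reads were recovered in this way. Because wholeness was the criterion for the step, that share does not check the inferred factors against the authors' own. Values were tested as log2(normalized count + 1) with limma 3.58.1 (trend, two-sided), with Benjamini-Hochberg adjustment over the genes that reached 10 normalized counts in 3 or more of 23 libraries; fold changes on that scale understate changes of low genes. One fit held 4 age and genotype groups plus sex, the study's model, and another held 8 groups. Calls passed an adjusted p of 0.05, and ± is the standard error.

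Symbols came from the file's FlyBase identifiers (17527 of 17606 matched) and coordinates from the Ensembl annotation of the same assembly. The members and gene lists were chosen with earlier results of these data known. Named genes were all members, for each list and comparison up to 3 genes of lowest adjusted p, of which the text gives a selection, and the 3 genes of highest Pearson r for each member called. Alternatives were pseudocounts of 0.5 and 5, no filter, upper-quartile scaling, all 24 libraries, a replicate block, edgeR 4.0.16 and DESeq2 1.42.0 on recovered reads, and each library left out. The fits were tested on simulated data. Sequences of promoters and proteins were not analysed here. No pair of replicates agreed within sampling noise. R 4.3.3, Python 3.11.15, pandas 2.3.3 and matplotlib 3.10.9 were used.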

Additional observations from a re-analysis of the deposited data

Results flagged for a closer look

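Within the 4 age and genotype groups, each member was checked for a library whose gap to the nearest other exceeded the 95% critical value of Dixon's test of the group's range. The check flagged a library 10 times over 40 groups. Its chance rate of 1 in 20 assumes normal values from 1 population and groups that are independent. Here counts were not log-transformed, each group pooled the sexes and members shared libraries, so the number flagged is no measure of an excess over chance. Old female H3.3BK36R replicate 3 was the highest of 6 for PGRP-SA (1131 normalized counts, next 515), PGRP-SB1 (9055, next 3687), PGRP-SC1a (9.23, next 2.17) and PGRP-SC2 (10626, next 2831). Old female H3.3Adelta replicate 1 was the highest of 6 for PGRP-SC2 (3368, next 163), and old female H3.3Adelta replicate 2 for PGRP-SC1a (3.69, next 0.938). Among young H3.3Adelta libraries, female replicate 1 was the highest for PGRP-SA (330.5, next 177), male replicate 3 for PGRP-LE (494, next 425) and male replicate 1 for PGRP-SB1 (2175, next 1446). Young female H3.3BK36R replicate 2 was the lowest of 5 for PGRP-LF (278, next 441).

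The age effect of PGRP-SC2 differed between genotypes by a test of the difference itself, 5.21 on the log2 scale (limma adjusted p = 0.042), a call lost in 16 of 23 fits without 1 library, with all 24 libraries, with no filter and with edgeR. The library left out, young male H3.3BK36R replicate 2, exceeded the highest H3.3Adelta library for PGRP-SC1a (90.7 against 3.69) and narrowly for PGRP-LE (497 against 494).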

How the results depend on the processing

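The members' log2 fold changes were recomputed in 2176 instances, with counts of members called kept apart. From the fit of 8 groups, only changes called as reported were followed, so calls gained there are not in these numbers. No called value changed direction, 80 lost a call and 17 gained one. A further 2069 kept their side of the threshold. Those of them not called stayed within the reported standard error, whatever their direction. The other 10 were not called and moved by at least that error. The 7 members called with age in H3.3BK36R were 7 in number under each alternative other than leaving out single libraries. With edgeR, members called fell from 3 to 1 for genotype in old heads, from 1 to 0 for the age-by-genotype interaction and from 1 to 0 for ageing in male H3.3Adelta heads, and rose from 0 to 1 for genotype in old females. With no filter on low counts they were 0 for the interaction, 1 for ageing in H3.3Adelta and 1 for ageing in female H3.3Adelta heads. With all 24 libraries they were 0 for the interaction, 1 for ageing in female H3.3Adelta and 0 for ageing in male H3.3Adelta and in male H3.3BK36R heads. Upper-quartile scaling gave 1 for genotype in old males and 0 for ageing in males of either genotype; the fall of PGRP-LA with age kept its direction there. DESeq2 gave 1 for genotype in old females and in old males, 2 for ageing in male H3.3BK36R heads, and 1 and 2 between the sexes in young H3.3BK36R and old H3.3Adelta heads. Without both old female libraries named in the report, chosen after seeing the data, the counts were 1 for ageing in H3.3Adelta and in female H3.3Adelta heads, 1 and 2 for genotype in old females and old males, and 2 for ageing in male H3.3BK36R heads. The cause of these shifts was not tested.

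Replicate numbers did not meet the rule for pairing, a correlation above 0.1 in every pair: over 11 pairs that shared number, age and sex and differed in genotype, deviations from group means correlated at 0.016 on average, with 3 above 0.1. Over all 77 pairs of equal number the average was 0.10, with 35 above 0.1, against -0.049 over 154 pairs of unequal number, also with 35. The replicate block gave 3 members for genotype in old females, 1 in old males and 2 between the sexes in old H3.3Adelta heads.

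Leaving out single libraries gave 2 to 6 members for genotype in old heads (6 without old female H3.3Adelta replicate 1), 0 to 1 for the interaction, 1 to 2 for ageing in H3.3Adelta, 6 to 7 for ageing in H3.3BK36R and 2 to 4 between the sexes. Within a sex the ranges were 0 to 4 for genotype in old females (4 without old female H3.3Adelta replicate 1), 0 to 1 for genotype in old and in young males, 0 to 4 for ageing in female H3.3Adelta heads (4 without old female H3.3Adelta replicate 2), 0 to 1 in male H3.3Adelta, 6 to 8 in female H3.3BK36R and 0 to 2 in male H3.3BK36R heads. Between the sexes they were 0 to 1 in young H3.3BK36R, 0 to 1 in old H3.3Adelta and 1 to 3 in old H3.3BK36R heads (1 without old male H3.3BK36R replicate 3). PGRP-SC1a, at 0 to 8 reads a library, was not tested.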
